A study of Drosophila melanogaster with 18 samples.

Results

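Tdc1 and Tdc2 are the tyrosine decarboxylase genes of Drosophila melanogaster, and they lie next to each other on chromosome arm 2R. The 2 genes were taken by FlyBase identifier from a table of 17529 genes (Tdc1, FBgn0259977; Tdc2, FBgn0050446), and both passed the filter that left 10834 genes for testing. They were chosen by their measured fold change in scrib mutant tissue over control, so for these 2 genes every comparison that uses scrib or control libraries is given as a description, with an interval and no p. For the pair, comparisons among the other 4 genotypes were tested, and other genes were tested in all comparisons.

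Tyrosine decarboxylase removes the carboxyl group of tyrosine and gives tyramine, a biogenic amine that tyramine beta-hydroxylase turns into octopamine, the insect counterpart of noradrenaline. In flies Tdc2 is the neuronal enzyme and Tdc1 is known from tissues outside the nervous system. The amines act through G protein-coupled receptors. The mutated genes of the study encode Scrib, a scaffold of the basolateral cell cortex whose loss turns imaginal epithelia into tumours, Fos, the AP-1 transcription factor that acts downstream of the JNK kinase, and CtBP, a transcriptional co-repressor.

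The RNA came from eye-antennal discs of larvae in the third instar, the larval epithelia from which the eye, antenna and surrounding head arise, in animals reared at 25 °C. The 6 genotypes had 3 libraries each: scrib1 with fosKM (scrib fos), scrib1 with CtBP87De-10 (CtBP scrib), scrib1 alone (scrib), CtBP87De-10 alone (CtBP), fosKM alone (fos), and the FRT82B chromosome with none of these mutations (control). All of them, control included, carried eyFLP and a cell-lethal mutation on the opposite FRT82B chromosome. In that design a flippase expressed in the eye-antennal primordium recombines the 3R arms and the cells homozygous for the lethal arm die, so that the disc is built largely of cells homozygous for the tested arm. The pair itself lies on 2R, outside the recombined arm. Each mutant is represented by 1 allele or allele combination, and the sources used here do not give the gate of the cell sort. A library was made from 180 to 330 ng of RNA that, per the labels, had been pooled over sorts of different days. Whether the 3 libraries of a genotype stand for separate sets of animals is not stated, so the p-values cover no more than the spread among these libraries, which may be technical.

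Libraries held 22294940 to 35510575 counts, and levels are given in CPM, a gene's count scaled to the library's total over tested genes with TMM factors of 0.932 to 1.04. Heat shock genes of the Hsp70 family took 0.00542% to 0.744% of counts and were highest in replicate 1 of each genotype. Annotated ribosomal RNA genes took 2.32% to 8.31%. CtBP transcript averaged 287 ± 8.05 CPM in CtBP discs and 822 ± 14.8 in control discs (SD, n = 3 each). Transcript of kay, the gene for Fos, averaged 103 ± 10.1 CPM in fos discs and 109 ± 25 in control discs, and scrib transcript 411 ± 50 in scrib discs and 473 ± 11.8 in control discs, so for these 2 alleles the RNA level does not check the label. In the remaining genotypes kay averaged 214 ± 10.7 CPM in scrib, 231 ± 4.62 in CtBP scrib, 139 ± 17.2 in scrib fos and 84.3 ± 2.33 in CtBP discs. The part of kay level in the level of the pair was not tested. The eye-antennal fate genes ey, eya, so, dac and Dll were present in all 18 libraries, at no less than 35.4 CPM in any of them. Most of the 13 eye-antennal disc markers moved opposite to the pair in some comparisons. Of the 13, 12 were higher in scrib fos than in CtBP scrib discs (23.2% of all genes) and 12 were lower in CtBP scrib than in CtBP discs (26.6% of all genes). In scrib over control discs 10 were lower and 1 was higher (25.7% and 27.8% of all genes). In scrib fos over fos discs, where neither gene of the pair was called, the markers went both ways, with 7 lower and 3 higher (24.4% and 23% of all genes). They summed to 2910 to 3172 CPM in scrib fos, 1686 to 1800 in CtBP scrib, 2099 to 2389 in scrib, 3188 to 3434 in CtBP, 3551 to 3645 in fos and 3494 to 3572 in control libraries, and their part in the level of the pair was not tested.

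Both decarboxylase genes were high in scrib and CtBP scrib discs and low in the other 4 genotypes. Tdc1 had 6.15, 2.14 and 2.87 CPM in scrib fos discs, 225, 224 and 223 in CtBP scrib discs, 63.7, 68.1 and 76.2 in scrib discs, 6.57, 4.88 and 6.51 in CtBP discs, 2.27, 2.66 and 3.33 in fos discs, and 3.45, 2.63 and 2.64 in control discs. The CtBP scrib libraries lay above all others, the scrib libraries came next, and neither set overlapped with any other genotype. Below them the CtBP libraries overlapped only with scrib fos, whose replicate 1 stood above its other libraries, and the remaining genotypes overlapped with one another.

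Tdc2 was the less abundant of the pair in every library. It had 1.41, 0.666 and 0.568 CPM in scrib fos discs, 16.4, 17.3 and 14.7 in CtBP scrib discs, 14.4, 9.72 and 12.5 in scrib discs, 0.745, 0.602 and 0.741 in CtBP discs, 0.634, 0.920 and 1.01 in fos discs, and 0.922, 0.505 and 0.810 in control discs. The same 2 genotypes were high, with the CtBP scrib libraries just above the scrib libraries, 14.7 against 14.4 CPM at their nearest. The other 4 genotypes overlapped, apart from the high library of scrib fos. Those low levels rested on 14 to 42 counts per library for Tdc2 and on 58 to 194 for Tdc1, so small differences among those genotypes were not measured finely.

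**Figure D1:**
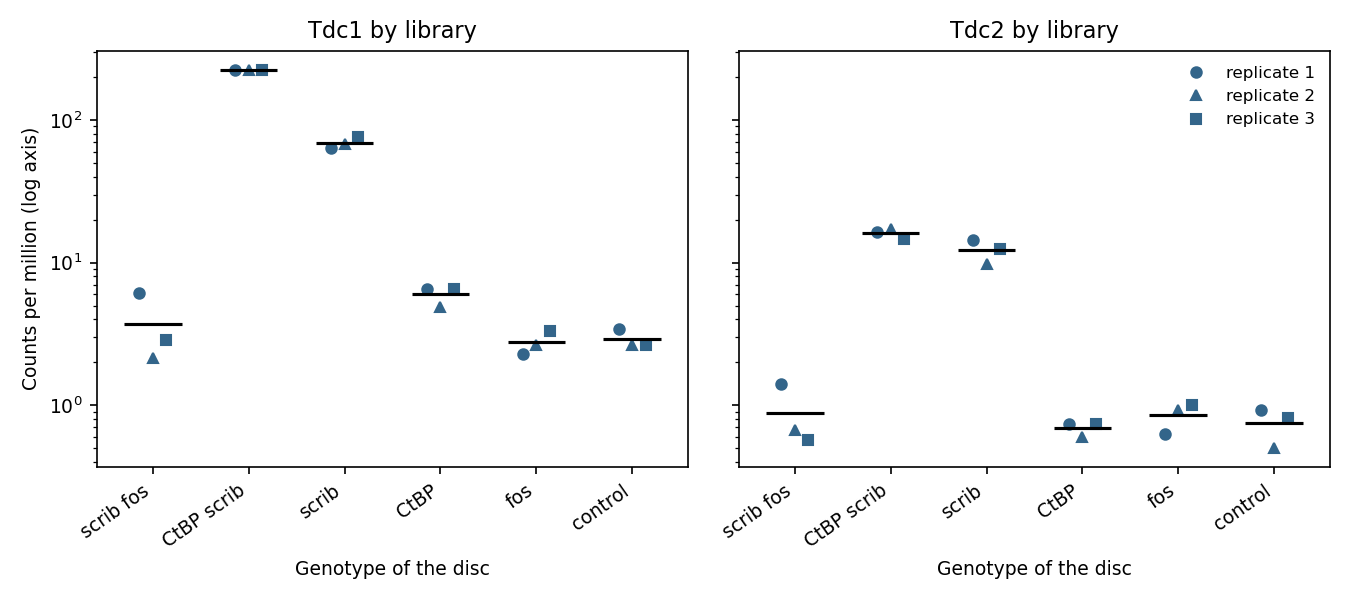
Levels of Tdc1 (left) and Tdc2 (right) in CPM on a log axis, 1 point per library and a bar at the mean of the 3 libraries of a genotype. Tdc1 averages 224 CPM in CtBP scrib and 69.3 CPM in scrib discs and at most 5.99 CPM elsewhere, while Tdc2 averages 16.1 and 12.2 CPM in those genotypes and at most 0.881 CPM elsewhere.

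By the mean, the order for Tdc1 was CtBP scrib (224 ± 1.09 CPM, SD, n = 3 here and below), scrib (69.3 ± 6.33), CtBP (5.99 ± 0.962), scrib fos (3.72 ± 2.13), control (2.91 ± 0.469) and fos (2.76 ± 0.536). Libraries of neighbours in that order overlapped from CtBP downwards. For Tdc2 it was CtBP scrib (16.1 ± 1.30 CPM), scrib (12.2 ± 2.35), scrib fos (0.881 ± 0.461), fos (0.854 ± 0.196), control (0.746 ± 0.216) and CtBP (0.696 ± 0.0816), with overlap from scrib fos downwards. CtBP discs thus took the third place for Tdc1 and the last for Tdc2. Per kilobase of exon, which allows levels of different genes to be set side by side, Tdc1 lay at the 93rd percentile of 10772 genes in CtBP scrib discs, the 73.7th in scrib discs and the 18th in control discs. Tdc2 lay at the 36.3rd, 32.4th and 6.86th percentiles, so even its high levels were below those of most tested genes.

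In scrib discs, the comparison that chose the genes, Tdc1 stood 23.8-fold above control (log2 fold change 4.57, SE 0.24, 95% interval 4.05 to 5.09) and Tdc2 16.2-fold (4.02, SE 0.24, interval 3.52 to 4.52). These were the ninth and the fifteenth highest fold changes of the 10834 genes, and by edgeR's quasi-likelihood test 53.5% of those genes were called at an adjusted p below 0.05. Values of the fos and CtBP single mutants stood much closer to control, in comparisons in which 0.997% and 14.5% of genes were called (CtBP, 7% higher and 7.46% lower). In fos discs the log2 fold change over control was -0.08 (SE 0.34, 95% interval -0.82 to 0.65) for Tdc1 and 0.19 (SE 0.33, interval -0.50 to 0.88) for Tdc2. In CtBP discs it was 1.03 (SE 0.30, interval 0.39 to 1.67) for Tdc1, whose CtBP libraries all lay above those of control, and -0.11 (SE 0.34, interval -0.83 to 0.60) for Tdc2, whose libraries overlapped.

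The double mutants carry the question of how far the high level of the pair in scrib tissue goes with fos and with CtBP. Relative to scrib discs, Tdc1 in scrib fos discs was 18.6-fold lower (log2 fold change -4.22, SE 0.23, interval -4.72 to -3.72) and Tdc2 13.9-fold lower (-3.80, SE 0.23, interval -4.28 to -3.32), where 37.8% of genes were called and 20.2% were called lower. Relative to the same scrib libraries, Tdc1 in CtBP scrib discs was 3.23-fold higher (1.69, SE 0.17, interval 1.32 to 2.06) and Tdc2 1.32-fold higher (0.40, SE 0.17, interval 0.04 to 0.76), where 18.7% of genes were called, 9.57% higher and 9.14% lower. These comparisons share the scrib libraries, on which the choice of the genes rests. The tested comparisons that follow use none of them. The genes were chosen with earlier results of these data known, however, so the p-values of those comparisons may not be independent of the choice.

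In a CtBP mutant background, loss of scrib raised both genes. Tdc1 averaged 224 ± 1.09 CPM in CtBP scrib discs and 5.99 ± 0.962 in CtBP discs, and rose 37.5-fold (log2 fold change 5.23, SE 0.22, adjusted p = 1.19e-10, edgeR quasi-likelihood test). Tdc2 averaged 16.1 ± 1.30 CPM in CtBP scrib discs and 0.696 ± 0.0816 in CtBP discs, and rose 23.2-fold (4.54, SE 0.24, adjusted p = 3.84e-12). All 3 libraries of CtBP scrib lay above all 3 of CtBP for each gene, and the changes ranked fifteenth and twenty-second from the top among 10834 genes. By the same test 55.5% of all genes were called in this comparison and 28.9% were called higher, so a call is common here.

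In a fos mutant background, loss of scrib made no difference that passed the test. Tdc1 averaged 3.72 ± 2.13 CPM in scrib fos discs and 2.76 ± 0.536 in fos discs (log2 fold change 0.44, SE 0.32, adjusted p = 0.289, edgeR quasi-likelihood test). Tdc2 averaged 0.881 ± 0.461 CPM in scrib fos discs and 0.854 ± 0.196 in fos discs (0.03, SE 0.32, adjusted p = 0.948). In this comparison 47.4% of all genes were called. The 95% intervals ran from -0.26 to 1.13 for Tdc1 and from -0.63 to 0.69 for Tdc2, and so stopped short of the 5.23 and 4.54 seen in the CtBP background. Replicate 1 of scrib fos set the sign: without it the log2 fold change was -0.11 for Tdc1 (adjusted p = 0.682) and -0.48 for Tdc2 (adjusted p = 0.205), and without fos replicate 1 that of Tdc2 was -0.12 (adjusted p = 0.804). That scrib fos library had 0.537% of its counts in Hsp70 genes, against 0.0767% and 0.0657% in the other libraries of its genotype, and 5.24% in ribosomal RNA genes, against 2.51% and 2.69%. Replicate 1 was the highest library for both genes in CtBP and control discs too, by less. It was the highest for Tdc2 alone in scrib discs, for Tdc1 alone in CtBP scrib discs and for neither gene in fos discs. The part of these shares in the result was not tested.

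The responses to scrib loss in the 2 backgrounds differed by a test of the difference itself. The change in the fos background minus that in the CtBP background was -4.79 on the log2 scale for Tdc1 (SE 0.42, adjusted p = 9.08e-07, edgeR quasi-likelihood test) and -4.51 for Tdc2 (SE 0.42, adjusted p = 6.47e-08). By that test 33.3% of all genes were called, and 16.9% of all genes were called in this direction. Compared directly, scrib fos discs had 60.1-fold less Tdc1 (log2 fold change -5.91, SE 0.23, adjusted p = 8.69e-11) and 18.4-fold less Tdc2 (-4.20, SE 0.23, adjusted p = 9.10e-12) than CtBP scrib discs. Among the 10834 genes Tdc1 had the eighth lowest fold change in that comparison and Tdc2 the 40th lowest, while 49.2% of genes were called and 26% were called lower.

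**Figure D2:**
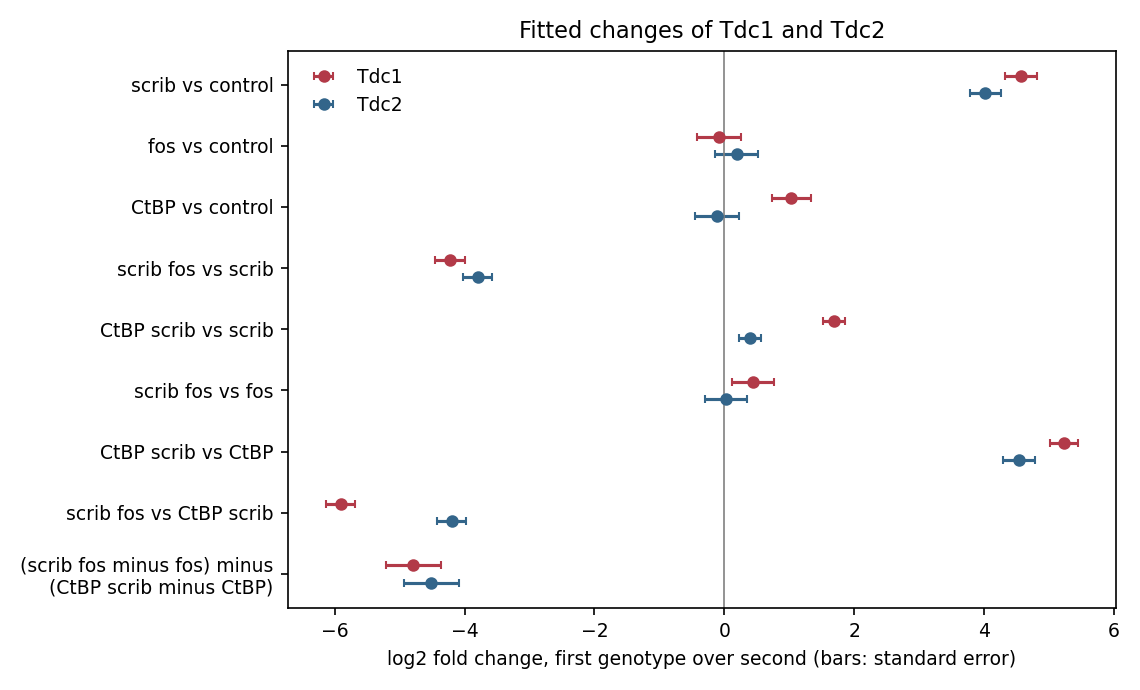
Fitted log2 fold changes of Tdc1 (red) and Tdc2 (blue), first-named genotype over the second, with bars for the standard error, from 1 fit over 18 libraries. Both genes stand at 4.02 or more in scrib over control and in CtBP scrib over CtBP, within 0.44 of 0 in scrib fos over fos, and at -3.80 or below wherever scrib fos is set over scrib or CtBP scrib.

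The ratio between the 2 genes varied among genotypes, by differences that the exact test could not call. The log2 ratio of Tdc1 to Tdc2, both in CPM per kilobase, was 2.14, 1.70 and 2.35 in scrib fos discs, 3.79, 3.71 and 3.93 in CtBP scrib discs, 2.16, 2.82 and 2.62 in scrib discs, 3.15, 3.03 and 3.15 in CtBP discs, 1.86, 1.55 and 1.74 in fos discs, and 1.92, 2.40 and 1.72 in control discs. Every library with the CtBP mutation lay above every library without it. Tdc1 was thus 14.0-fold as abundant as Tdc2 per kilobase in CtBP scrib discs and 8.65-fold in CtBP discs, against 5.79-fold in scrib discs and 3.28- to 4.18-fold in scrib fos, fos and control discs.

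The difference in this log2 ratio was 0.70 between CtBP scrib (mean 3.81) and CtBP discs (mean 3.11), with all 3 libraries higher (exact permutation test, 2-sided, p = 0.1). It was -1.75 between scrib fos (mean 2.06) and CtBP scrib discs (exact permutation p = 0.1), and 0.35 between scrib fos and fos discs (mean 1.71; exact permutation p = 0.3). With 3 libraries against 3, the exact test cannot give a p below 0.1, so none of the 3 comparisons could pass 0.05. Because Tdc2 had only 17 to 42 counts in each library of scrib fos and fos, the last of these ratios is the least precise.

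**Figure D3:**
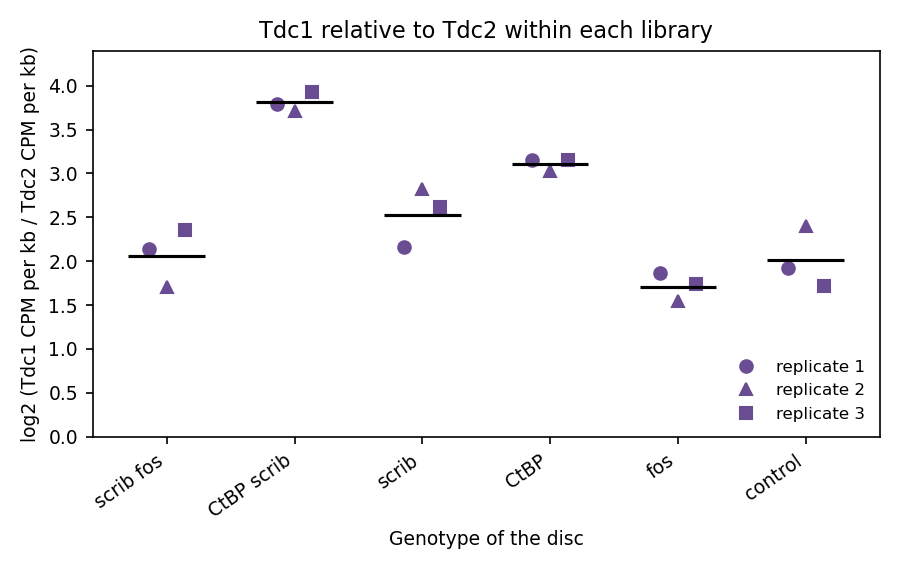
log2 ratio of Tdc1 to Tdc2 in CPM per kilobase of exon, 1 point per library and a bar at the genotype mean. The 6 libraries with the CtBP mutation lie between 3.03 and 3.93, and the 12 others between 1.55 and 2.82.

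On the dm6 assembly Tdc1 spans 2R positions 6677001 to 6680391 and Tdc2 positions 6684745 to 6689974, both on the minus strand, with 4353 bases between them. Tdc1 has 3 exons of 2281 bases in all and Tdc2 has 8 of 2303 bases. A gene on the plus strand, Rpp25 (positions 6675822 to 6693162), which encodes a subunit of ribonuclease P, spans them both. All of Tdc2 lies in 1 intron of Rpp25 of 10967 bases. An exon of Rpp25 shares 246 bases with the first exon of Tdc1 on the opposite strand, and since the sources used here do not state whether counting was stranded, reads from those bases cannot be assigned to one gene or the other. Between the pair lie lncRNA:CR44164, asRNA:CR44165 and CG15909, and the last of these shares 504 exon bases with asRNA:CR44165 and ends 34 bases from Tdc2.

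Genes inside the locus changed in the direction of the pair, by less. Rpp25 had 24.5, 26.4 and 24.1 CPM in scrib fos discs, 59.9, 59.2 and 60.8 in CtBP scrib discs, 37.1, 39.2 and 38.3 in scrib discs, 29.0, 26.6 and 25.9 in CtBP discs, 23.4, 23.3 and 23.3 in fos discs, and 24.1, 22.5 and 24.5 in control discs. As with Tdc1, its CtBP scrib libraries were the highest and its scrib libraries next, with no overlap. Reads from the exon bases shared with Tdc1 may be counted for Rpp25, and their part in its levels was not tested. The rise was 1.61-fold in scrib over control discs (log2 fold change 0.69, SE 0.05, adjusted p = 7.83e-10, edgeR quasi-likelihood test here and for the other neighbours) and 2.21-fold in CtBP scrib over CtBP discs (1.14, SE 0.05, adjusted p = 1.36e-13). In scrib fos over fos discs the value was 0.10 (SE 0.05, adjusted p = 0.14), and the 2 responses differed by -1.04 (SE 0.07, adjusted p = 7.95e-10). Rpp25 fell by 0.61 in scrib fos discs relative to scrib discs (adjusted p = 8.44e-09) and rose by 0.65 in CtBP scrib discs relative to scrib discs (adjusted p = 7.67e-09).

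The genes between the pair were near the limit of detection. CG15909 had 0.370, 0.666 and 0.482 CPM in scrib fos discs, 1.63, 2.01 and 1.60 in CtBP scrib discs, 1.31, 1.70 and 1.28 in scrib discs, 0.440, 0.475 and 0.780 in CtBP discs, 0.335, 0.603 and 0.233 in fos discs, and 0.410, 0.397 and 0.599 in control discs. It rose in CtBP scrib over CtBP discs (log2 fold change 1.64, SE 0.29, adjusted p = 7.86e-05) and in scrib over control discs (1.60, SE 0.31, adjusted p = 1.74e-04), and in scrib fos discs it stood below CtBP scrib discs (-1.79, SE 0.30, adjusted p = 3.59e-05). The antisense transcript asRNA:CR44165 averaged 0.293 ± 0.118 CPM in scrib fos discs, 1.20 ± 0.272 in CtBP scrib discs and 0.349 ± 0.242 in CtBP discs. It rose in CtBP scrib over CtBP discs (1.82, SE 0.42, adjusted p = 9.88e-04), with a value of 2.50 without CtBP replicate 3. In scrib fos discs its level was below that of CtBP scrib discs (-2.06, SE 0.43, adjusted p = 4.07e-04). These 2 transcripts share exon bases on opposite strands, so their counts are uncertain as to which of them was read. lncRNA:CR44164 had at most 8 counts in any library and was not tested.

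Beyond Rpp25 the neighbours moved little. The 5 nearest genes on the side of lower coordinates were CG15908, CG9410, Hsepi, PGAP3 and CG17266, and those on the other side CG3270, Mob4, Rab2, chk and CG45092. The last pair have the same count in all 18 libraries and cannot be told apart. Their log2 fold changes in CtBP scrib over CtBP discs ran from -0.53 for chk to 0.26 for CG15908, and in scrib fos over CtBP scrib discs from -0.41 for Rab2 to 0.26 for chk. Rab2, a small GTPase of secretory transport, was the one of these 10 that was called in the direction of the pair in CtBP scrib over CtBP, in scrib fos over CtBP scrib and in the difference between the 2 responses (-0.34, SE 0.06, adjusted p = 7.18e-05), at 1.33-fold or less.

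**Figure D4:**
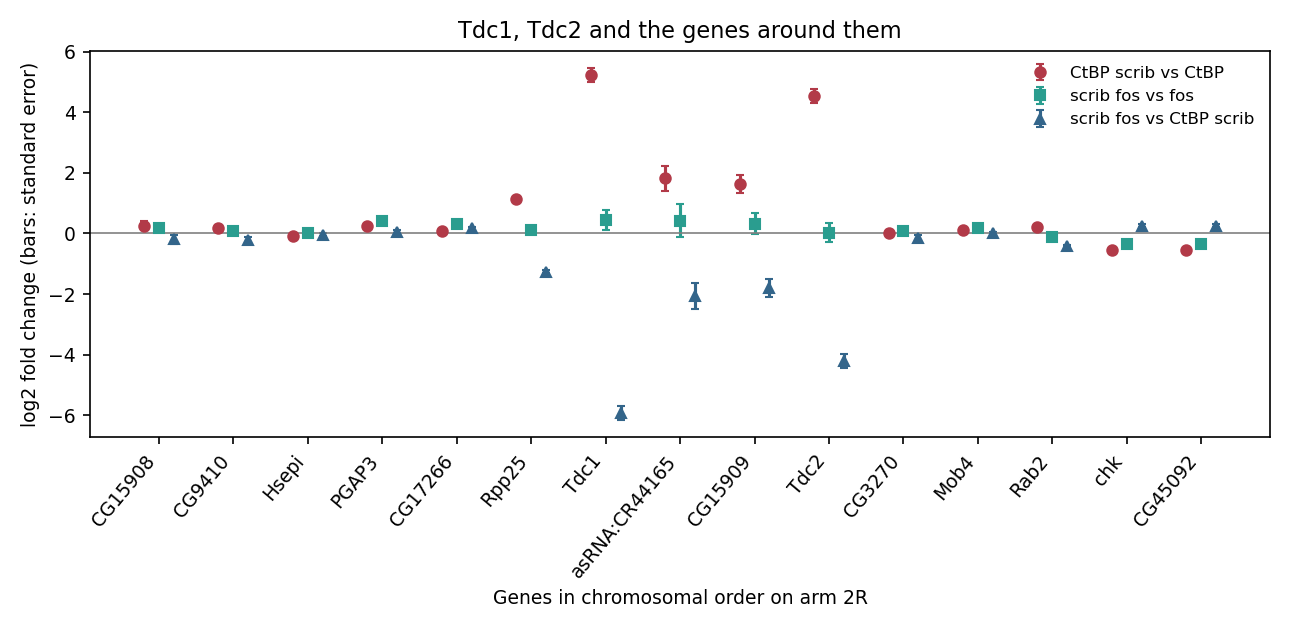
log2 fold changes with standard errors for Tdc1, Tdc2 and the tested genes around them, in the order in which they lie on the arm, for 3 comparisons between genotypes. The pair reaches 5.23 and 4.54 in CtBP scrib over CtBP discs, Rpp25 and the genes between the pair 1.14 to 1.82, and the other genes -0.53 to 0.26.

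Other genes of amine synthesis and transport moved in both directions, in CtBP scrib over CtBP discs at shares close to those of all genes. Of 10 tested genes of amine synthesis, transport and turnover, 3 rose and 3 fell in CtBP scrib over CtBP discs, where 28.9% of all genes were called higher and 26.6% lower, and their median log2 fold change was -0.29 against 0.00 over all genes. In scrib fos over fos discs 1 rose and 3 fell (23% of all genes higher, 24.4% lower), with a median of -0.02 against -0.01. In scrib over control discs 1 rose and 4 fell (27.8% of all genes higher, 25.7% lower), with a median of -0.72 against 0.01. Over other settings the counts ran from 1 to 3 higher and 1 to 4 lower in CtBP scrib over CtBP discs, and from 0 to 2 higher and 1 to 4 lower in scrib fos over fos discs.

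Tbh, the hydroxylase that turns tyramine into octopamine, had 0.370, 0.296 and 0.454 CPM in scrib fos discs, 0.518, 0.193 and 0.376 in CtBP scrib discs, 0, 0.465 and 0.150 in scrib discs, 0.677, 0.855 and 0.897 in CtBP discs, 0.969, 0.888 and 1.24 in fos discs, and 1.16, 0.757 and 1.06 in control discs. Its 9 libraries with the scrib mutation all lay below the 9 without it. It fell in scrib relative to control discs (log2 fold change -2.27, SE 0.50, adjusted p = 7.16e-04), in scrib fos relative to fos discs (-1.43, SE 0.43, adjusted p = 0.0105) and in CtBP scrib relative to CtBP discs (-1.14, SE 0.47, adjusted p = 0.0441; edgeR quasi-likelihood test here and for the genes below). The size of the fall in scrib discs hung on single libraries, at -3.64 without scrib replicate 2 and -1.67 without scrib replicate 1, and the call in scrib fos discs was lost without replicate 3 of every genotype (-1.45, adjusted p = 0.121). DAT, the dopamine transporter, fell in the same comparisons by 3.83 (adjusted p = 3.96e-09), 2.93 (6.70e-08) and 2.87 (7.56e-08). Vmat, which loads amines into vesicles, fell in scrib relative to control discs (-1.61, SE 0.45, adjusted p = 0.00514), with values of -0.94 in scrib fos over fos (adjusted p = 0.0929) and -0.60 in CtBP scrib over CtBP discs (adjusted p = 0.294). Tbh and DAT were thus low in scrib and CtBP scrib discs, where the decarboxylase genes were high, and also in scrib fos discs, where these were low.

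Ddc, Hn and e were the members that rose in CtBP scrib over CtBP discs. All were lower in CtBP than in control discs (log2 fold changes -1.76, -2.42 and -2.88, adjusted p = 0.041, 2.11e-05 and 0.0104, edgeR quasi-likelihood test). That call held in 6 of 16 other settings for Ddc and in 11 of 14 for e. In CtBP discs Hn had 4, 3 and 5 counts and e 3, 3 and 2, against 10, 9 and 6, and 19, 25 and 12, in CtBP scrib discs. Hn averaged 0.333 CPM there and 0.762 in control discs, e 0.745 and 0.703, and Ddc 5.82 and 3.33. The control mean of e rested on replicate 1, at 1.54 CPM against 0.397 and 0.176 in the other control libraries. Without that library the log2 fold change of e in CtBP over control discs was -1.59 (adjusted p = 0.145). Ddc, dopa decarboxylase, rose in CtBP scrib over CtBP discs (log2 fold change 2.55, SE 0.51, adjusted p = 7.51e-04) and in scrib over control discs (1.60, SE 0.42, adjusted p = 0.00539). That call over control was lost when scrib and control libraries were fitted alone (1.59, adjusted p = 0.0761) and without replicate 2 (1.34, adjusted p = 0.0591) or replicate 3 (1.28, adjusted p = 0.0945) of every genotype. Its value in scrib fos over fos discs was 1.37 (adjusted p = 0.0430), and without scrib fos replicate 1 it was 0.86 (adjusted p = 0.198). The call was also lost without fos replicate 1 (1.60, adjusted p = 0.0579), fos replicate 2 (1.22, adjusted p = 0.132) and fos replicate 3 (1.36, adjusted p = 0.0956). Hn, phenylalanine hydroxylase, which makes tyrosine, rose in CtBP scrib over CtBP discs (1.25, SE 0.38, adjusted p = 0.0176) but fell in scrib fos over fos discs (-1.11, SE 0.28, adjusted p = 0.00281) and in scrib over control discs (-1.57, SE 0.30, adjusted p = 1.69e-04). The ebony gene e, whose product conjugates dopamine to beta-alanine, rose in CtBP scrib over CtBP discs (2.97, SE 0.74, adjusted p = 0.00217). The tyrosine hydroxylase gene ple, which uses the same substrate, had log2 fold changes of -0.06 in CtBP scrib over CtBP discs (adjusted p = 0.949) and 0.77 in scrib fos over fos discs (adjusted p = 0.337).

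Several receptor genes for these amines fell in the scrib genotypes. Of 6 tested octopamine and tyramine receptor genes, 5 fell in scrib fos over fos discs (3 to 5 over other settings), 4 in CtBP scrib over CtBP discs (2 to 5) and 3 in scrib over control discs (2 to 3). Of all genes 24.4%, 26.6% and 25.7% were called lower in these comparisons. The median log2 fold changes were -1.33, -0.97 and -0.53. Octbeta3R, an octopamine receptor, had 0.706, 0.776 and 0.482 CPM in scrib fos discs, 0.111, 0 and 0 in CtBP scrib discs, 1.20, 0.504 and 0.338 in scrib discs, 1.76, 2.12 and 1.76 in CtBP discs, 2.35, 3.71 and 3.37 in fos discs, and 4.06, 3.61 and 2.78 in control discs. It fell in CtBP scrib relative to CtBP discs (log2 fold change -5.40, SE 0.61, adjusted p = 2.61e-07), a fitted value that depends on the prior count, since the CtBP scrib libraries held 3 counts in all and those in replicate 1 (-8.72 without it), and in scrib fos relative to fos discs (-2.28, SE 0.34, adjusted p = 1.83e-05). Oct-TyrR, which binds tyramine, fell in the same comparisons (-2.78, SE 0.40, adjusted p = 5.51e-06, and -1.13, SE 0.29, adjusted p = 0.00341). TyrR and TyrRII, the other tyramine receptor genes, had at most 0.203 CPM in any library and were not tested. The call of Octbeta2R in scrib over control discs (-0.72, adjusted p = 0.0490) was lost without control replicate 1 (-0.60, adjusted p = 0.155) and without 4 other single libraries. Calls of 2 receptors in CtBP scrib over CtBP discs hung on single libraries: that of Octbeta1R (-0.54, adjusted p = 0.0441) was lost without any of 5 libraries, among them CtBP replicate 1 (-0.43, adjusted p = 0.149), and that of Oamb (-1.06, adjusted p = 0.0232) without CtBP replicate 2, CtBP replicate 3 or CtBP scrib replicate 3 (adjusted p = 0.131, 0.0536 and 0.117).

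Several enzymes that break tyrosine down fell in the scrib genotypes. Of 5 tested, 5 fell in scrib fos over fos discs (2 to 6 over other settings, the 6 without a filter), 4 in CtBP scrib over CtBP discs (4 to 5) and 3 in scrib over control discs (3 to 4), with medians of -0.77, -0.50 and -0.58, where 24.4%, 26.6% and 25.7% of all genes were called lower. Faa, which cleaves fumarylacetoacetate, had -0.35 in CtBP scrib over CtBP discs (adjusted p = 0.374) and -0.12 in scrib over control discs (adjusted p = 0.716), and Tat, tyrosine aminotransferase, had -0.74 in scrib over control discs (adjusted p = 0.0584). In scrib fos over fos discs the call of GstZ1 (-0.25, adjusted p = 0.0143) was lost without fos replicate 2 (-0.19, adjusted p = 0.106) and without scrib fos replicate 3 (-0.20, adjusted p = 0.0837). GstZ2, a zeta class glutathione transferase whose mammalian counterpart isomerises maleylacetoacetate, was the most abundant gene of this group in control discs by CPM. It had 23.3, 21.9 and 18.2 CPM in scrib fos discs, 5.44, 4.06 and 4.19 in CtBP scrib discs, 10.7, 10.9 and 12 in scrib discs, 42.5, 46.2 and 46.1 in CtBP discs, 55.3, 57.5 and 59.7 in fos discs, and 59.3, 61.0 and 57.8 in control discs. No libraries overlapped except those of fos and control, and CtBP scrib and scrib discs, the highest for Tdc1, were the lowest for GstZ2. It fell by 3.29 in CtBP scrib relative to CtBP discs (SE 0.10, adjusted p = 2.62e-16) and by 1.45 in scrib fos relative to fos discs (SE 0.08, adjusted p = 1.98e-11), and the responses differed by 1.84 (SE 0.13, adjusted p = 5.42e-10).

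Other pyridoxal phosphate decarboxylase genes moved in both directions. Of 5 tested, Ddc, b and CG5618 rose and Hdc and amd fell in CtBP scrib over CtBP discs. In that comparison 28.9% of all genes were called higher and 26.6% lower. Over other settings 2 to 3 of the list were higher and 1 to 2 lower. Hdc, histidine decarboxylase of photoreceptors, fell there by 4.32 (SE 0.83, adjusted p = 1.71e-04), with 0.0370, 0.0387 and 0 CPM in CtBP scrib discs against 0.237, 0.918 and 0.702 in CtBP discs, so the fitted value rests on very few counts. The gene b, aspartate decarboxylase, which makes beta-alanine, rose there (1.38, SE 0.34, adjusted p = 0.00381), and scrib fos discs had less of it than CtBP scrib discs (-2.06, SE 0.36, adjusted p = 3.12e-04), with a value of -0.32 in scrib fos over fos discs (SE 0.39, adjusted p = 0.535).

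**Figure D5:**
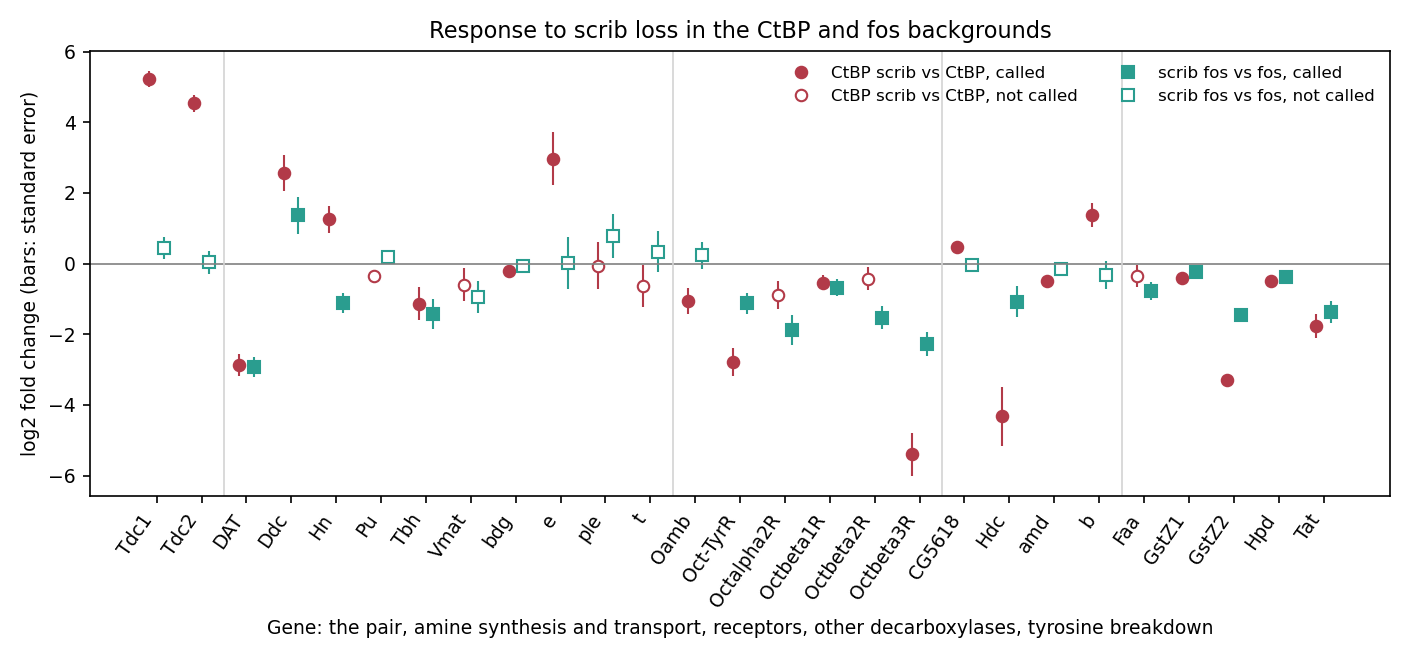
log2 fold changes with standard errors for the response to scrib loss in the CtBP background (red) and the fos background (green), for the pair and the tested genes of amine synthesis and transport, amine receptors, other decarboxylases and tyrosine breakdown. Filled points passed the edgeR test. Tdc1 and Tdc2 stand at 5.23 and 4.54 in the CtBP background, above every other gene shown, the next being e at 2.97.

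Markers of other cell types moved between the same genotypes. In bulk RNA, fewer cells of a type and less RNA per cell cannot be told apart. Of 10 neuron markers, all 10 fell in scrib fos relative to fos discs (24.4% of all genes) and all 10 in CtBP scrib relative to CtBP discs (26.6% of all genes), and their summed level was 112 to 152 CPM in scrib fos, 67.9 to 91.3 in CtBP scrib, 89.8 to 104 in scrib, 341 to 380 in CtBP, 445 to 464 in fos and 447 to 469 in control libraries. Neuron markers were low in all 3 scrib genotypes, and Tdc2 was high in scrib and CtBP scrib discs and low in scrib fos discs. The part of neurons in the level of the pair was not tested. Of 5 markers of aminergic neurons, which include Tbh, Vmat and DAT, the serotonin transporter gene SerT was the one that rose with the pair. SerT ranged from 0.170 to 0.504 CPM in scrib fos, from 1.63 to 2.21 in CtBP scrib, from 1.43 to 1.69 in scrib, from 0.234 to 0.339 in CtBP, from 0.194 to 0.507 in fos and from 0.144 to 0.581 in control libraries. It rose in CtBP scrib over CtBP discs (log2 fold change 2.67, SE 0.39, adjusted p = 6.03e-06) and its responses in the 2 backgrounds differed by -2.87 (SE 0.62, adjusted p = 0.00110).

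Blood cell markers were low in scrib fos discs, one of the genotypes in which the pair was low. All 6 fell in scrib fos relative to CtBP scrib discs, a comparison in which 26% of all genes were called lower, here and for the lists that follow. They had a summed level of 12.1 to 12.5 CPM in scrib fos, 59.1 to 75.2 in CtBP scrib, 81.6 to 112 in scrib, 87.4 to 201 in CtBP, 112 to 151 in fos and 141 to 211 in control libraries. Of 6 muscle and myoblast markers 4 fell in scrib fos relative to CtBP scrib discs, with a summed level of 131 to 140 CPM in scrib fos, 298 to 330 in CtBP scrib, 227 to 280 in scrib, 222 to 275 in CtBP, 157 to 219 in fos and 236 to 266 in control libraries. Of 5 trachea markers 4 fell in the same comparison, at 1733 to 1955 CPM in scrib fos, 3187 to 3295 in CtBP scrib, 1741 to 1799 in scrib, 1921 to 2162 in CtBP, 1188 to 1390 in fos and 1148 to 1218 in control libraries. Of 5 glia markers 2 fell and 1 rose, at 236 to 260 CPM in scrib fos, 384 to 404 in CtBP scrib, 328 to 337 in scrib and 255 to 282 in the remaining libraries together. In CtBP scrib over CtBP discs (28.9% of all genes higher, 26.6% lower) 0 blood cell markers rose and 4 fell. Of muscle markers 3 rose and 1 fell there, of trachea markers 3 and 0, and of glia markers 2 and 2. In scrib fos over fos discs (23% and 24.4%) blood cell markers had 0 higher and 6 lower, muscle 0 and 3, trachea 3 and 1, and glia 0 and 3. In scrib over control discs (27.8% and 25.7%) the lists had, in that order, 0 and 4, 2 and 1, 3 and 1, and 2 and 2. The part of blood cells, muscle, trachea and glia in the level of the pair was not tested.

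Of the markers of Malpighian tubule and gut, tissues in which Tdc1 is known to act, the defining genes Uro, byn, CapaR and Jon25Bi had at most 0.403 CPM in any library, and Uro and byn at most 0.0677. Irk1 and Lkr, the other genes of that list, were the ones tested. The means of Irk1, a potassium channel gene not particular to the tubule, had the order of genotypes seen for Tdc1, though not that seen for Tdc2. Irk1 averaged 57.7 ± 1.62 CPM in scrib fos, 98.3 ± 3.14 in CtBP scrib, 78.6 ± 2.51 in scrib, 70.9 ± 11.4 in CtBP, 48.8 ± 3.55 in fos and 51.6 ± 3.53 in control discs. It rose in CtBP scrib over CtBP discs (log2 fold change 0.47, SE 0.08, adjusted p = 8.98e-05) and in scrib over control discs (0.61, SE 0.08, adjusted p = 6.61e-06), and also in scrib fos over fos discs (0.24, SE 0.08, adjusted p = 0.0256). Lkr, a leucokinin receptor, fell in CtBP scrib over CtBP discs (-2.29, SE 0.58, adjusted p = 0.00214). The sum over the whole list was mostly that of Irk1. It was 56.3 to 60.4 CPM in scrib fos, 95.9 to 102 in CtBP scrib, 76.3 to 81 in scrib, 62.3 to 84.1 in CtBP, 47.2 to 53.4 in fos and 47.9 to 54.5 in control libraries. Fat body markers summed to 2.56 to 55.6 CPM per library, with 4.70 to 34.4 in scrib fos, 7.18 to 18.5 in CtBP scrib and 2.56 to 8.91 in scrib libraries.

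Genes with the most similar pattern to the pair over the 18 libraries were found by Pearson's r of log2 CPM, which is given as a description since the libraries fall into a high and a low cluster. For Tdc1 the 5 named genes with the highest r among 10833 were puc (0.990), Myo61F (0.989), Pvf1 (0.989), wun (0.989) and Gprk2 (0.987). puc encodes the phosphatase that JNK signalling induces against itself, Pvf1 a ligand of the PDGF and VEGF receptor, Myo61F a class I myosin, wun a lipid phosphate phosphatase and Gprk2 a kinase of G protein-coupled receptors. puc had 50.9, 42.2 and 41.5 CPM in scrib fos discs, 187, 186 and 193 in CtBP scrib discs, 125, 123 and 123 in scrib discs, 44.5, 43.2 and 48.3 in CtBP discs, 39.4, 37.2 and 40.3 in fos discs, and 48.5, 40.4 and 46.1 in control discs. Like Tdc1 it was highest in CtBP scrib and next in scrib libraries, with no overlap, over a smaller range. As puc was picked by its r with Tdc1 over these libraries, the shared pattern is no separate result.

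For Tdc2 the 5 genes were AnxB11 (0.986), upd1 (0.986), Alp12 (0.985), Rcd2 (0.985) and wun2 (0.984). AnxB11 encodes an annexin, upd1 a ligand of the JAK/STAT pathway, Alp12 an alkaline phosphatase and wun2 a lipid phosphate phosphatase related to that of wun. upd1 had 3.76, 2.26 and 3.04 CPM in scrib fos discs, 49.6, 50.9 and 52.3 in CtBP scrib discs, 40.9, 37.7 and 36.7 in scrib discs, 2.47, 2.34 and 2.18 in CtBP discs, 3.88, 3.52 and 3.95 in fos discs, and 5.57, 2.78 and 3.35 in control discs. Its scrib and CtBP scrib libraries differed by less than those of Tdc1, as for Tdc2, by whose r it was picked. The sets of 5 shared 0 genes, and Tdc2 ranked 67th in likeness to Tdc1 (r 0.971), close to Rpp25 (86th, r 0.968), while Tdc1 ranked 45th in likeness to Tdc2. By Spearman's rho 1 of the 5 genes of Tdc1 and 0 of those of Tdc2 were among the first 5, and by r over the 6 genotype means 0 of each, so the names rest on the measure used.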

How the data were processed

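The 18 RNA-seq libraries were grouped by genotype from the labels. The authors deposited 1 table of raw counts, whole numbers of reads for each gene. Subread, featureCounts, edgeR and the dm6 build are named, without versions, in the submitters' processing notes. Annotation and strand setting were not stated there. Positions and symbols came from Ensembl release 115 (dm6 coordinates), which held 17425 of the 17529 genes and lacked 104. No column without a sample was used.

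Counts were fitted in R 4.3.3 with edgeR 4.0.16: filterByExpr by genotype (10834 kept, 6695 removed), TMM, glmQLFit (robust) in 1 fit over all 18 libraries with 12 residual degrees of freedom, and glmQLFTest, with Benjamini-Hochberg adjustment over the 10834 genes with calls made below an adjusted p of 0.05. Standard errors were the log2 fold change over the square root of F, and intervals are 95%. CPM divided counts by the total over tested genes times the TMM factor. The fit was tested on simulated data. The members and gene lists were chosen with earlier results of these data known. Of 90 listed genes 89 were matched. Comparisons with scrib or control libraries carry no p for Tdc1 and Tdc2. Genes named were the pair, the mutated genes, 5 neighbours on each side and those between, up to 4 list members with the smallest p per comparison (other members were named after their values were seen) and the 5 most alike genes with a symbol. Same-genotype libraries all differed beyond sampling noise (lowest chi-square/df 4.2). Over a group, 0 counts allow up to 0.0326 to 0.0405 CPM (3 counts, counting error only). Alternatives were DESeq2 1.42.0 size factors and its Wald test, no filter, 1 CPM in 3 libraries, no ribosomal RNA genes, only the compared groups, a replicate block and leaving out libraries.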

Additional observations from a re-analysis of the deposited data

Results flagged for a closer look

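The response to scrib loss differed between the fos and the CtBP background for 6 genes, among the pair and the 14 genes of the locus around it. The test was of the difference itself (edgeR quasi-likelihood test, fos background minus CtBP background, log2 scale), and lncRNA:CR44164 was not tested. By the same test 33.3% of all genes were called, so a call is common here. The difference was -4.79 for Tdc1 and -4.51 for Tdc2, and it held its direction and its call in all 22 other settings run for each. For Rpp25, which spans the pair, it was -1.04 (adjusted p = 7.95e-10), and for Rab2 it was -0.34 (adjusted p = 7.18e-05).

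The differences of the other neighbours were less secure. For CG15909, which lies between the pair, it was -1.32 (adjusted p = 0.0351), and the call was lost without fos replicate 2 (-0.83, adjusted p = 0.242) and without CtBP replicate 1 (-1.16, adjusted p = 0.0813), among others. For CG17266 it was 0.23, in the opposite direction (adjusted p = 0.0428), and the call was lost without fos replicate 1 (0.20, adjusted p = 0.105) and without most other single libraries.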

How the results depend on the processing

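Of 471 values of the main results under other settings, 457 were labelled the same. Tested comparisons had to keep direction and side of the threshold, the ratio of the pair its direction, and counts to stay within 1.5 times. Described comparisons had only to stay within the spread between libraries, so values near 0 could change sign. Tdc1 in fos over control ran from -0.29 to 0.17. Tdc2 ran from -0.08 to 0.54 in fos over control and from -0.33 to 0.06 in CtBP over control. The direction of Tdc1 in scrib fos over fos turned to -0.11 without scrib fos replicate 1 and to -0.22 without replicate 1 of every genotype (range on leaving out libraries -0.22 to 0.78), and that of Tdc2 to -0.48 and -0.65, and to -0.12 without fos replicate 1 (-0.65 to 0.43); none of these passed the test. Counts of called genes fell on leaving out libraries: to 35 to 96 in fos over control (108 with all; 71 without fos replicate 1, 57 without fos replicate 2, 62 without replicate 3 and 35 without replicate 2 of every genotype), and, without replicate 2 of every genotype, to 652 in CtBP over control (range 652 to 1351), 2544 in scrib fos over scrib (2544 to 3931), 1005 in CtBP scrib over scrib (1005 to 1875), 3305 in scrib fos over fos (3305 to 5155) and 2137 for the difference between responses (2137 to 3642). The cause was not tested. Of 2267 values of neighbours and list genes, 288 lost a call and 2 gained one. By the criterion that every same-numbered pair correlate above 0.1, replicate numbers did not pair the libraries (correlations of deviations -0.159 to 0.205). Replicate 1 libraries did share some deviation, with a median correlation of 0.126 and 8 of 15 above 0.1, against a median of -0.026 and 9 of 90 between different numbers. In every genotype replicate 1 was also farther from replicates 2 and 3 (chi-square per degree of freedom 25.2 to 127) than these were from each other (4.2 to 17.5). With a replicate block the difference between responses was -4.82 for Tdc1 and -4.54 for Tdc2, scrib fos over fos 0.42 and 0.01, and CtBP scrib over CtBP 5.23 and 4.54. Depth limits Tdc2 most, at 14 to 42 counts per library in the low genotypes.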
